A study of Mus musculus with 3 samples.

Results

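The 64 genes described here encode the factors that start and extend protein synthesis on the ribosome. They were chosen by name and class alone: protein-coding genes of the GENCODE M21 annotation whose symbol begins with Eif or Eef followed by a digit, leaving out the Eif2ak kinases. That rule found 51 Eif and 13 Eef genes among 22028 protein-coding genes, and it used no measured value. RNA was sequenced after removal of ribosomal RNA from the cytosol of macrophages grown from the bone marrow of C57BL/6J mice and given 100 ng/ml lipid A for 120 min. Lipid A is the part of bacterial lipopolysaccharide that the receptor TLR4 recognises. There is 1 group of 3 libraries, each made from 1 µg of RNA, and no untreated group, so no value below is a response to lipid A. Sex and age were not recorded. The libraries are numbered as biological replicates 1 to 3, each with its own biosample, but they share a single donor identifier and no separate animals or cultures are named. Every SD (n = 3) and every p-value therefore measures the spread between these libraries, and how much of it is biological cannot be told.

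Translation begins when eIF2 brings the initiator tRNA to the small ribosomal subunit, where eIF1, eIF1A, eIF3 and eIF5 hold the scanning complex. The cap-binding complex eIF4F, made of eIF4E, the scaffold eIF4G and the helicase eIF4A, brings the mRNA to it. After eIF5B has joined the subunits, eEF1A delivers each aminoacyl-tRNA, the eEF1B complex recharges eEF1A with GTP, and eEF2 moves the ribosome along. In macrophages, signals from TLR4 reach this machinery through mTORC1, the MNK kinases and the phosphorylation of eIF2.

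Several of these genes are spliced in more than 1 way, and for Eif4a2, Eef1b2 and Eif2a the alternatives that carried much of the signal end the reading frame early. The sequences that show this are given first, from the GENCODE M21 transcripts with mm10 positions, 5′ to 3′. In the skipped exon of Eif4a2 (chr16:23109120-23109259, plus strand, 140 bases), capitals mark the 24 bases that encode the Walker A loop, the ATP-binding loop of this helicase. In the 4 reading frame ends, capitals mark the premature stop codon, and the first 30 bases of each come from the exon before the one that holds the stop. The stop-containing stretches lie at chr16:23109985-23110067 for Eif4a2-210, chr16:23112351-23112360 for Eif4a2-204, chr3:58541040-58541046 for Eif2a-207 and chr1:63178439-63178452 for Eef1b2-205, all on the plus strand. The Eif4h exon (chr5:134624441-134624500, minus strand, 60 bases) is shown as a contrast, because its length is a multiple of 3 and the reading frame is kept with or without it.
Eif4a2 skipped exon: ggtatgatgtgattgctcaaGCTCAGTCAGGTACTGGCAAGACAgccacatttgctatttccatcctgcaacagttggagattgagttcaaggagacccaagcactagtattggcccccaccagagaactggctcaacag
Eif4a2-210 end of reading frame: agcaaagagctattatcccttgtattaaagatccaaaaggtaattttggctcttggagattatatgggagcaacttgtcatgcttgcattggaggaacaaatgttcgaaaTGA
Eif4a2-204 end of reading frame: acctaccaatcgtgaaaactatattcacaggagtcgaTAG
Eif2a-207 end of reading frame: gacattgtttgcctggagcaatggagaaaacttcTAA
Eef1b2-205 end of reading frame: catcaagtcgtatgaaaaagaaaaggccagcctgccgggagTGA
Eif4h alternative exon: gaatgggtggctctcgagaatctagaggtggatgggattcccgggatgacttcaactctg

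Summed expected counts were 31152786, 114031592 and 59693298 in replicates 1, 2 and 3. An expected count is a model's estimate of the reads of a gene, and TPM is that estimate divided by gene length and scaled to a fixed total, so TPM can be compared between genes. Coding genes of the nucleus together had 22.2% ± 1.21 of TPM, while 67.5% ± 3.96 went to genes of the annotation's miscellaneous RNA class. Comparisons of 1 gene between libraries therefore use TPM rescaled to those coding genes (coding-scaled TPM, in ppm). All 8 macrophage markers were detected, from Mertk at 14.5 TPM to Lyz2 at 4039 TPM. No T cell, B cell, NK cell, erythroid or stromal marker was detected, and of 4 neutrophil markers S100a8 and S100a9 were, with a sum over the 4 of 19.1 to 25.2 TPM while Ly6g was at 0.

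Of the 64 translation factor genes, 59 were detected, meaning that TPM reached 1 in each of the 3 libraries, against 37.6% of all nuclear-encoded protein-coding genes. At least 10 TPM in every library was reached by 35 of them, and at least 100 TPM by 4: Eef1a1, Eef2, Eif1 and Eif4a1. How many of all coding genes reached these levels was not counted. The median over the 64 genes was 14.4 ± 0.224 TPM, where the median over all coding genes was 0.107 ± 0.0153 TPM. Among genes that were detected, the medians of the mean TPM were 15.8 for the translation factors and 6.84 for coding genes. Together the 64 genes took 1.37% ± 0.0373 of the TPM of nuclear-encoded coding genes. The 5 genes not detected were Eef1a2, Eef1akmt3, Eif2s3y, Eif4e1b and Eif5a2.

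**Figure D1:**
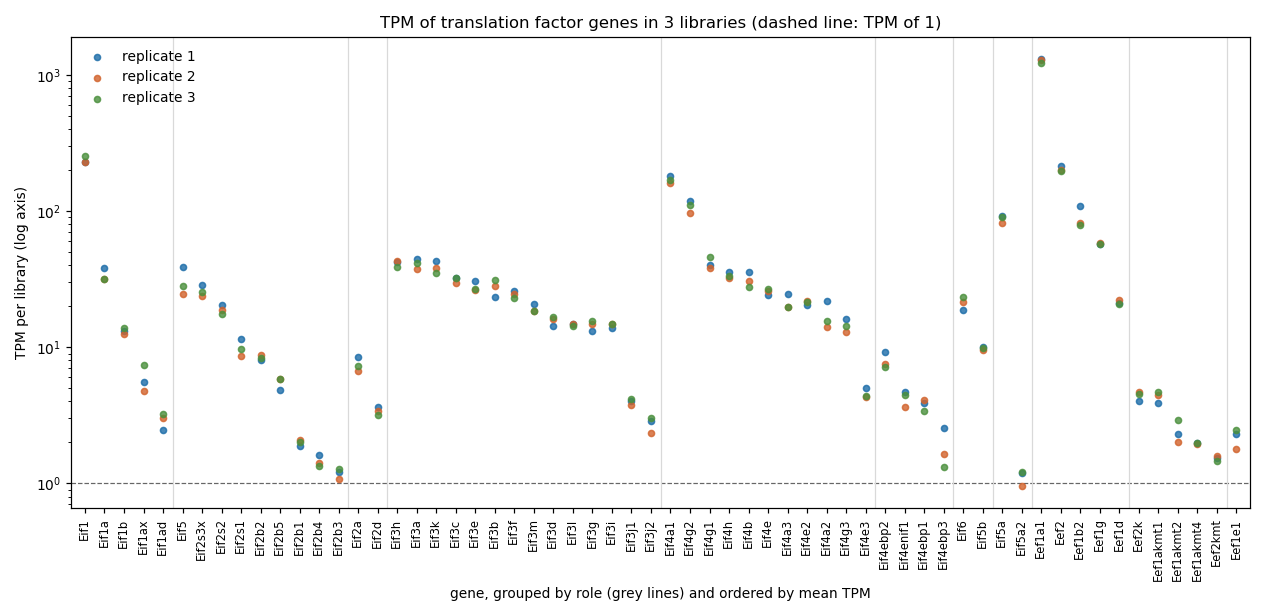
TPM of each translation factor gene in each of the 3 libraries, on a log axis, with genes grouped by role and ordered by mean TPM; the 4 genes with a TPM of 0 in at least 1 library are left out. The levels run from about 1 TPM (Eif5a2, Eif2b3) to 1284 TPM (Eef1a1), and the 3 libraries lie close together for most genes.

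The elongation factors held 54.7% ± 1.43 of the TPM of all 64 genes. Eef1a1, which encodes the tRNA-delivering factor eEF1A, was at 1324, 1304 and 1222 TPM in replicates 1, 2 and 3. This was the 16th highest mean TPM of all coding genes, and Eef1a1 alone made up 42.4% ± 1.37 of the TPM of the translation factors. Eef2, the translocase, came next among the elongation factors at 213, 199.8 and 199 TPM, with libraries far below those of Eef1a1.

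The 3 genes of the eEF1B exchange complex were not level with each other. Eef1b2, the alpha subunit that exchanges the nucleotide, was at 109, 82.2 and 79.4 TPM, highest in replicate 1. Eef1g, the gamma subunit, was at 57.87, 58.35 and 57.85 TPM. Eef1d, the delta subunit, lay between 20.9 and 22.3 TPM. The 3 ranges did not overlap, so the order Eef1b2, Eef1g, Eef1d held in every library on gene TPM. It did not hold on models annotated as coding alone, where Eef1b2 was at 55.45, 44.78 and 38.51 TPM and Eef1g at 52.77, 47.01 and 52.51 TPM, so that Eef1g was the higher in replicates 2 and 3. Eef1d was the lowest of the 3 on both scales. Eef1a2, the eEF1A form known from muscle and neurons, had 0, 9 and 2 expected counts. The muscle and neuron markers Actn2 and Rbfox3 were at 0 TPM in every library and Ckm was at most 0.05 TPM.

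Eef1a1, Eef1g and Eif4a1 have many processed pseudogenes, which could share reads with them. Of all windows of 50 bases in their highest coding transcript, 59.2%, 64.3% and 65.3% also occurred in a transcript of another annotated gene. The pseudogene with the most of these windows was Gm13456 for Eef1a1, at 2.43 ± 0.231 TPM. It was Gm4366 for Eef1g, at 0.863 ± 0.202 TPM, and Eif4a-ps4 for Eif4a1, at 2.25, 5.87 and 5.84 TPM. These levels were small beside those of the 3 genes, but how the authors' model split the shared reads was not tested. Over all 64 genes, 30 shared no such window and 15 shared at least 20% of them. Other coding genes were not scanned in this way.

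Among the factors that watch over the start codon, Eif1, which keeps the scanning ribosome from starting at a wrong codon, was at 229.6, 229 and 255 TPM. Its close relative Eif1b was at 13.1, 12.6 and 13.8 TPM, and the log2 ratio of the 2 genes was 4.18 ± 0.0401, an 18.1-fold difference. Of Eif1 TPM, 42.7% ± 4.64 came from Eif1-202, a noncoding model of 383 nt that held 10.01% ± 1.81 of the gene's expected counts. On models annotated as coding alone the log2 ratio of Eif1 over Eif1b was 3.37 ± 0.0905.

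Both genes for eIF1A, which binds the decoding site during scanning, were detected. Eif1a was at 38.1, 31.5 and 31.7 TPM and the X-linked Eif1ax at 5.56, 4.78 and 7.47 TPM. Eif1a was the higher in every library. Eif1ad, which encodes a protein with an eIF1A-like domain, was at 2.91 ± 0.396 TPM.

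The 3 subunits of eIF2 are present in equal number in the complex, but their mRNAs were not equally abundant. Eif2s3x, the GTP-binding gamma subunit, was at 28.85, 23.8 and 25.3 TPM. Eif2s2, the beta subunit, was at 20.6, 18.8 and 17.7 TPM. Eif2s1, the alpha subunit that stress kinases phosphorylate, was at 11.4, 8.66 and 9.73 TPM. None of these ranges overlapped with that of its neighbour. The Y-linked gamma copy Eif2s3y had 0 counts in every library. A floor of 3 counts would place it 563-fold below Eif2s3x in replicate 1, where depth was least. The deposited TPM credibility interval of Eif2s3y in that library reached 0.388, above the floor of 0.0513 TPM. The fold therefore depends on the bound taken. Ddx3y, Uty and Kdm5d, which are also Y-linked, had 0 counts in every library as well.

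The 5 subunits of eIF2B, which reloads eIF2 with GTP, were lower than those of eIF2, except that the ranges of Eif2b2 and Eif2s1 overlapped. Eif2b2 was the highest at 8.44 ± 0.359 TPM, followed by Eif2b5, the catalytic epsilon subunit, at 5.51 ± 0.552 TPM. Eif2b1, Eif2b4 and Eif2b3 followed at 1.99, 1.46 and 1.19 TPM, and no 2 neighbours among the 5 overlapped between libraries. The order of Eif2b1 and Eif2b4 is less sure than this. In replicate 1 the deposited TPM credibility interval of Eif2b4, 2.12 to 5.54, lay above its own value of 1.62. It overlapped that of Eif2b1, 1.85 to 2.86. The first place of Eif2b2 rests on short models: intron-retaining models made up 45.1% ± 1.41 of its TPM but 9.10% ± 0.267 of its expected counts. Eif5, which triggers GTP hydrolysis by eIF2, was at 38.7, 24.8 and 28.3 TPM. Its range overlapped that of Eif2s3x.

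Of the factors that can bring initiator tRNA without eIF2, Eif2a was at 8.42, 6.73 and 7.34 TPM and Eif2d at 3.63, 3.40 and 3.18 TPM. Eif2a was the higher of the pair in every library.

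All 14 genes of eIF3, the multisubunit scaffold on the small ribosomal subunit, were detected. Without the loosely attached subunit j, the 12 remaining genes spanned 2.85-fold, from Eif3h at 41.4 ± 2.24 TPM to Eif3i at 14.5 ± 0.535 TPM. In falling order they were Eif3h, Eif3a, Eif3k, Eif3c, Eif3e, Eif3b, Eif3f, Eif3m, Eif3d, Eif3l, Eif3g and Eif3i. Neighbours in this order overlapped between libraries except at 3 steps: between Eif3k and Eif3c, between Eif3f and Eif3m, and between Eif3m and Eif3d. The 3 highest genes therefore formed a level of their own above Eif3c, and the 4 lowest one below Eif3m. Between them Eif3c and Eif3e lay wholly above Eif3f, and Eif3b, with the widest range of these 4, overlapped each of the other 3. Eif3a and Eif3b carry the core to which other subunits attach, and they were at 44.7, 37.8 and 41.65 TPM and at 23.5, 28.3 and 31.2 TPM.

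Subunit j has 2 genes whose reads can hardly be told apart. Eif3j1 was at 4.04, 3.76 and 4.19 TPM and Eif3j2 at 2.86, 2.35 and 3.02 TPM, both below every other eIF3 gene. Their coding sequences were 99.2% identical, and 91.8% of the 50-base windows of Eif3j2 occurred elsewhere. The deposited second quantification, made from the reads with another program, put Eif3j2 above Eif3j1: the log2 ratio of Eif3j1 over Eif3j2 was 0.55 ± 0.112 in the gene tables and -1.09 ± 0.0957 there. Which of the 2 is higher is not settled by these values.

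Among the eIF4F genes and their helpers the helicase gene Eif4a1 was the highest, at 181, 161 and 171 TPM. Eif4g2, a relative of the eIF4G scaffold that lacks the part that binds eIF4E, followed at 118, 97.4 and 111 TPM. The scaffold Eif4g1 was at 40.55, 38.46 and 45.87 TPM, which is 2.61-fold below Eif4g2, and Eif4g3 was at 16.04, 12.97 and 14.46 TPM. Each of these 4 genes kept its place in all 3 libraries.

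Eif4h and Eif4b, which stimulate the helicase, were at 33.8 ± 1.70 and 31.5 ± 4.06 TPM with overlapping libraries. The cap-binding gene Eif4e was at 24.2, 25.75 and 26.9 TPM, and its relative Eif4e2 at 20.45, 21.92 and 21.35 TPM. Eif4e was above Eif4e2 in every library, with a log2 ratio of 0.27 ± 0.0552, a 1.21-fold difference on average. That ratio rests on how Eif4e reads were divided among its models. Eif4e-201, with a transcript of 4991 nt and the full coding sequence, held 68.9% of the expected counts and 24.3% of the TPM. Eif4e-205, of 729 nt, held 10.4% of the counts and 34.5% of the TPM. Eif4e3 was at 4.55 ± 0.375 TPM. Eif4e1b, a form known from oocytes, had 0 counts in every library. The same floor of 3 counts would place it 336-fold below Eif4e in replicate 1.

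The eIF4A paralogs stood at unequal levels. Eif4a2 was at 21.9, 14.1 and 15.7 TPM, and the log2 ratio of Eif4a1 over Eif4a2 was 3.33 ± 0.253, a 10.1-fold difference. Eif4a3, the paralog found in the exon junction complex, was at 24.55, 19.85 and 19.81 TPM, and Eif4a1 exceeded it by 3.00 ± 0.116 on the log2 scale. The coding sequences of Eif4a1 and Eif4a2 were 77.8% identical. Eif4a3-203, a noncoding model of 466 nt, held 45.4% ± 8.72 of Eif4a3 TPM and 13.9% ± 4.05 of its counts.

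The mRNAs of the proteins that hold eIF4E inactive until mTORC1 phosphorylates them were less abundant than that of eIF4E. Eif4ebp2 was at 9.27, 7.49 and 7.20 TPM. Eif4ebp1 was at 3.92, 4.07 and 3.41 TPM, below Eif4ebp2 in every library with a log2 ratio of -1.07 ± 0.181. Eif4ebp3 was at 2.55, 1.63 and 1.32 TPM. Of its 50-base windows, 65.5% were shared with the overlapping coding gene AC115631.1, which was at 3.77, 3.18 and 3.21 TPM. Eif4enif1, the transporter that carries eIF4E into the nucleus, was at 4.67, 3.63 and 4.45 TPM.

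Eif5a, the hypusine-bearing factor that helps stalled ribosomes, was at 91.9, 81.99 and 91.3 TPM. Its paralog Eif5a2 was at 1.19, 0.95 and 1.22 TPM, below the detection rule in replicate 2 only, and the log2 ratio was 6.31 ± 0.108, a 79.3-fold difference. Eif6, which keeps the large subunit from joining too early, was at 18.8, 21.6 and 23.2 TPM. Eif5b, the GTPase of subunit joining, was at 9.97, 9.52 and 9.95 TPM, below Eif6 in every library.

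The enzymes that modify the elongation factors were low. Eef2k, the kinase that inactivates eEF2, was at 4.04, 4.66 and 4.50 TPM. Eef2kmt, Eef1akmt1, Eef1akmt2 and Eef1akmt4, all methyltransferases of eEF2 or eEF1A, ranged from 1.53 to 4.34 TPM in their means, and Eef1akmt3 had 0, 5 and 3 expected counts. Eef1e1, a part of the aminoacyl-tRNA synthetase complex, was at 2.29, 1.79 and 2.45 TPM.

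In 11 of the 13 pairs of related genes a ratio could be taken in every library, and in 10 of those the gene listed first was the higher in all 3 libraries. The exception was Eif4ebp1 against Eif4ebp2, which was lower in all 3. The 2 pairs without a ratio were Eef1a1 with Eef1a2 and Eif2s3x with Eif2s3y, where the second gene was at 0 in at least 1 library. An exact two-sided sign test over 3 libraries cannot give a p below 0.25, so no p is attached to these orders.

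**Figure D2:**
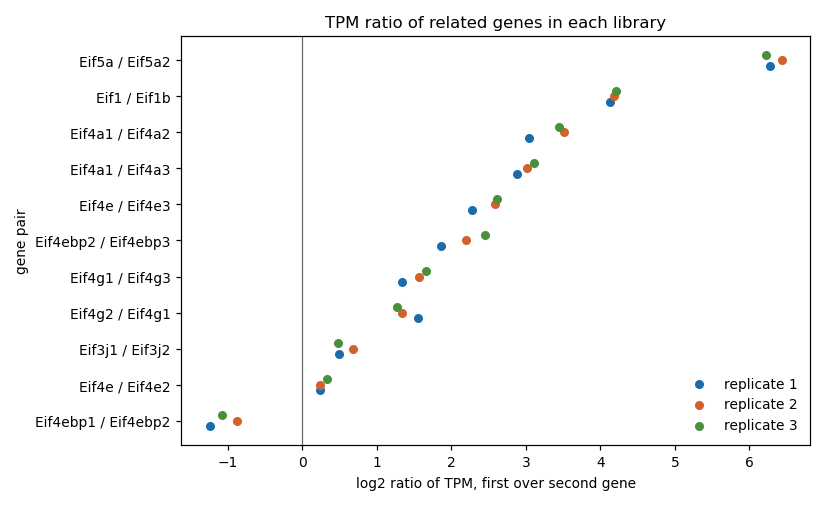
Log2 ratio of TPM between related genes, first over second, with 1 point per library. The ratios run from -1.07 for Eif4ebp1 over Eif4ebp2 to 6.31 for Eif5a over Eif5a2, and no pair has points on both sides of 0.

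Of the 35 translation factor genes with a mean of at least 10 TPM, 17 had at least 90% of their TPM in a single transcript model, among them Eef1a1-201, Eef2-201, Eif4a1-213 and Eif4b-201. In 5 genes the highest model held less than 50%: Eef1b2, Eif4a2, Eif4e, Eif4g1 and Eif4g3. The same counts were not made over other coding genes. Transcripts annotated as targets of nonsense-mediated decay, the pathway that removes mRNAs whose stop codon lies ahead of an exon junction, made up at least 20% of TPM in every library in 3 of 59 detected genes. This is 5.08%, where the share of all detected coding genes was 3.53%. Models of any noncoding class reached 20% in 10 of 59, or 16.9%, where the share of detected coding genes was 14.3%. Both shares of the translation factors lie near the background.

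Eif4a2 was the gene in which decay-annotated models weighed most, with 70.5% ± 1.72 of TPM, 76.7% ± 2.07 of expected counts and 53.0% ± 4.82 in the second quantification. Models that skip the exon with the Walker A loop held 52.0%, 50.8% and 46.4% of Eif4a2 TPM. Most of this was Eif4a2-210, where the loss of 140 bases shifts the frame to the TGA printed above, with 6 exon junctions after it. Models that include a further exon of 107 bases (chr16:23112351-23112457) held 21.3%, 24.4% and 22.4%, and in Eif4a2-204 that exon brings the TAG printed above. Eif4a2-202, labelled as coding, has a longer last exon that begins at the same base and ends at the same TAG, and it held 7.36%, 4.39% and 8.98%. Eif4a2-225, a partial model with no annotated end, held 8.91%, 11.0% and 7.71%. The 2 models with the complete coding sequence, Eif4a2-201 and Eif4a2-203, held 0%, 4.25% and 1.08%, or 0.257 ± 0.309 TPM. In every library the skipped exon came first and the included exon came next.

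**Figure D3:**
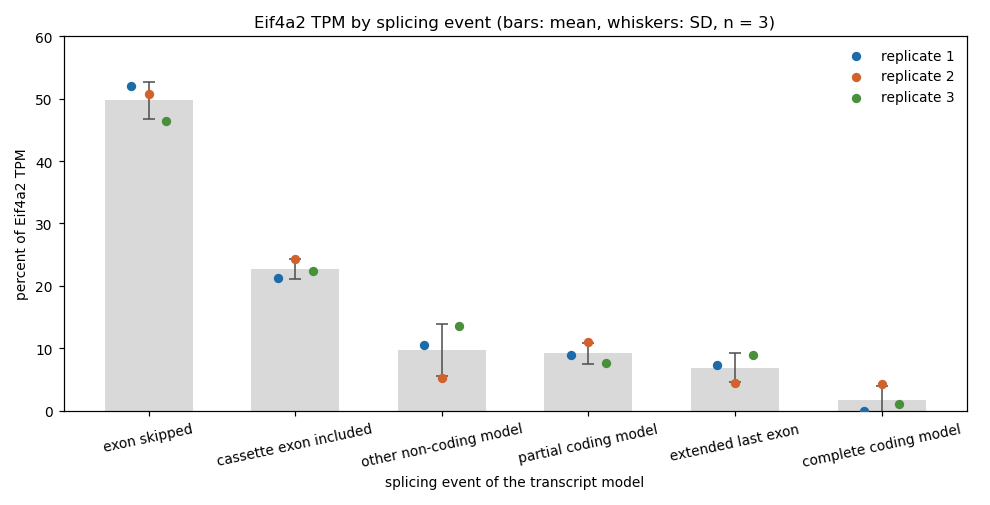
Percent of Eif4a2 TPM in transcript models grouped by splicing event, with bars for the mean, whiskers for the SD and 1 point per library. Models that skip the Walker A exon hold 49.7% ± 2.95, those with the extra exon 22.7% ± 1.56 and the complete coding models 1.78% ± 2.21.

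The second quantification gave the same first and next place, with 40.4% for the skipped exon and 20.1% for the included exon, but 9.76% for the complete coding models. The share of the complete models thus differed between the methods. When only models labelled as coding were counted, the log2 ratio of Eif4a1 over Eif4a2 was 5.64 ± 0.214 in place of 3.33. This alternative was chosen after the data were seen. The models come from the annotation and the values from a fit of reads to them, and reads across single junctions were not analysed here.

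In Eef1b2 the highest model was the decay-annotated Eef1b2-205, with 44.2%, 44.2% and 48.0% of TPM, 35.0% ± 1.63 of expected counts and 50.1% ± 2.72 in the second quantification. Compared with the coding model Eef1b2-204, its first exon ends 41 bases earlier and its second begins 31 bases earlier, which brings a TGA with 3 junctions after it. It stood at 40.9 ± 6.41 TPM, and all coding models of the gene together held 51.3% ± 3.01 of TPM, led by Eef1b2-209 with 39.1%.

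In Eif2a the decay-annotated Eif2a-207, which skips an exon of 119 bases (chr3:58539528-58539646), held 37.8%, 25.4% and 32.0% of TPM. The second quantification gave 13.5% ± 14.96, so its share differed between libraries and between methods by more than those of Eif4a2 and Eef1b2. Eif4h was the in-frame contrast. Eif4h-205, with the exon of 60 bases printed above, held 42.0%, 44.2% and 40.9% of TPM, and Eif4h-201, without it, 54.0%, 54.6% and 55.9%. Both Eif4h models are annotated as coding, and the second quantification gave 42.8% and 52.8%.

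**Figure D4:**
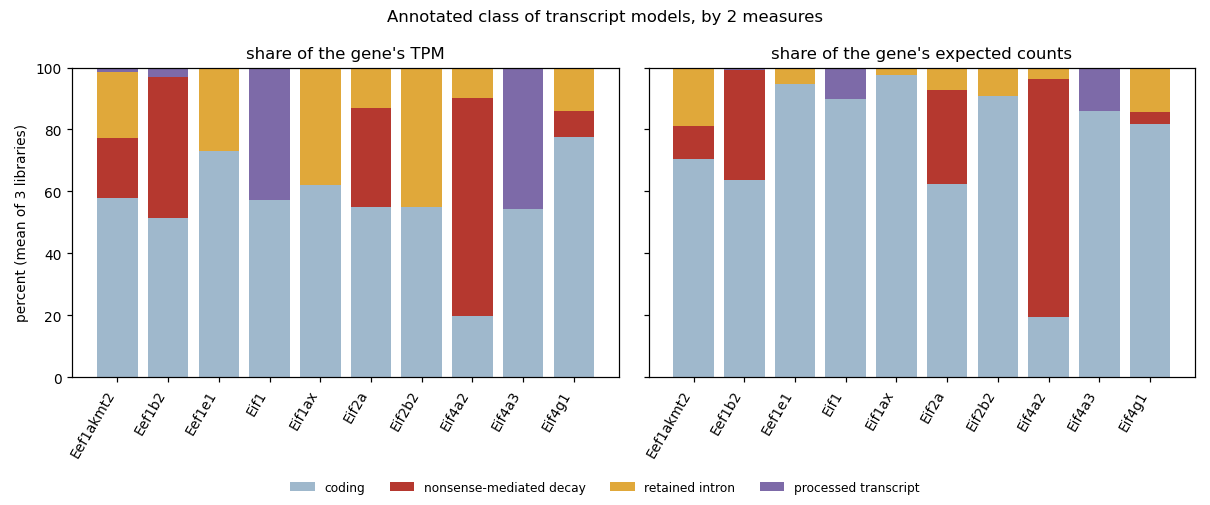
Share of each annotated transcript class in the 10 translation factor genes with at least 20% of TPM in noncoding models in every library, by TPM (left) and by expected counts (right), as means of 3 libraries. The red decay-annotated part stays large in Eif4a2 (70.5% and 76.7%) on both scales, while the noncoding part of Eif1ax, Eif1, Eif2b2 and Eef1e1 is at most 10.1% of counts.

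The 10 genes differed in how much of their noncoding share remained when expected counts were used in place of TPM. In Eif4a2, Eef1b2 and Eif2a models labelled as coding held 19.4%, 63.8% and 62.5% of expected counts, and the complete coding models of Eif4a2 alone held 1.53%. In Eif1, Eif1ax, Eif2b2 and Eef1e1 coding models held 89.9%, 97.6%, 90.9% and 94.8% of counts, although they held 57.1%, 62.2%, 54.9% and 73.0% of TPM. Short models gain TPM from few reads, because TPM divides by length. The other 3 genes lay between these, with coding models at 70.3% of counts for Eef1akmt2, 81.8% for Eif4g1 and 85.9% for Eif4a3, against 57.9%, 77.6% and 54.2% of TPM. Eif4g1 changed with the method, since its coding models held 95.0% in the second quantification. It was not the only one: there Eif4a3 rose to 70.0% and Eif1ax fell to 39.9%. Outside the 10 genes, coding models of Eif5b went from 94.2% of TPM to 46.9%, and those of Eif2s1 from 90.4% to 62.4%. The count of 10 genes was not repeated in the second quantification.

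The libraries differed little for most translation factors. On coding-scaled TPM the highest library exceeded the lowest by a median of 1.16-fold over the 59 detected genes, and by 1.17-fold over 8281 detected coding genes. A ratio of at least 1.5 was found for 1 of 59 genes, where the background was 7.33%. That gene was Eif4ebp3, at 10.9, 7.73 and 5.99 ppm with only 73.4, 198 and 77.8 expected counts. Its counts varied beyond counting error by the test described below, and 65.5% of its 50-base windows were shared with AC115631.1. The next genes by this ratio were Eif1ax at 23.7, 22.7 and 33.9 ppm and Eif3b at 100.1, 134 and 142. At the other end Eif4h was at 151, 152 and 152 ppm, a ratio of 1.01, and Eif4a1 at 769, 764 and 776.

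**Figure D5:**
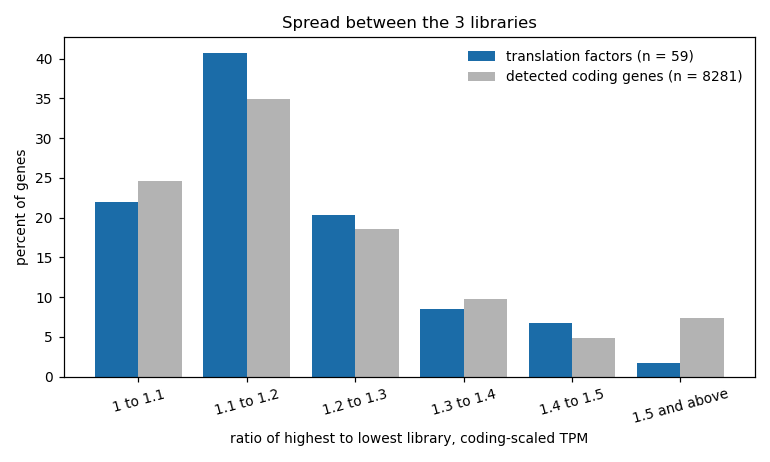
Distribution of the ratio of the highest to the lowest library on coding-scaled TPM, as a percent of the 59 detected translation factor genes (blue) and of 8281 detected coding genes (grey). Most genes of both sets lie below 1.3, and 1.69% of the translation factors and 7.33% of detected coding genes reach 1.5.

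No library was at one end for most of the genes. The highest library was replicate 1 for 19 genes, replicate 2 for 22 and replicate 3 for 18, and the lowest was replicate 1 for 25, replicate 2 for 16 and replicate 3 for 18. How often each library was at an end over all detected coding genes was not counted. Eif5, Eif4a2 and Eef1b2 were each highest in replicate 1, at 165, 93.3 and 465 ppm against 118 and 128, 66.9 and 71.2, and 389.8 and 361 in replicates 2 and 3. Eif3b, Eif6 and Eif2b5 were each lowest in replicate 1, Eif6 at 79.97 against 102 and 106 ppm.

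Expected counts varied beyond counting error in 52 of 60 translation factors tested, or 86.7%, by a Poisson dispersion test with Benjamini-Hochberg adjustment at 0.05 over 14038 genes, of which 62.1% were called. The median mean count was 3204 for these 60 genes and 639 over all genes tested, which lets smaller differences pass. Without replicate 2, the deepest library, 34 of the 60 were called, or 56.7%, and 37.9% of all genes tested. The 8 genes not called were Eef1akmt2, Eef1akmt4, Eef2kmt, Eif2b3, Eif2b4, Eif2s1, Eif3a and Eif4e3. The size of the spread, as the edgeR biological coefficient of variation, had a median of 0.111 over the translation factors, 0.131 over coding genes and 0.151 over all genes tested. In a fit to coding genes only, the medians were 0.102 over the translation factors and 0.117 over coding genes. The sets were not matched for counts, so the medians do not show that translation factors vary less as a class.

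The partners of these factors were measured by the same detection rule. Of 6 eIF2 kinases and phosphatase subunits 4 were detected. Ppp1r15a, the inducible phosphatase subunit that restores eIF2, was at 142, 83.7 and 75.6 TPM, and the constitutive Ppp1r15b at 41.1 ± 1.74 TPM. Among the kinases Eif2ak2, which senses double-stranded RNA, was at 22.2 ± 1.81 TPM, Eif2ak1 at 4.56 ± 0.416 TPM, and Eif2ak4 and Eif2ak3 at 1.23 and 0.79 TPM.

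Of 13 genes that signal to initiation through mTORC1 and the MNK kinases 12 were detected. The highest were Larp1, which binds mRNAs that begin with a pyrimidine run, at 32.7 ± 0.637 TPM, and the GTPase Rheb at 17.8 ± 1.34 TPM. The MNK kinases that phosphorylate eIF4E followed, Mknk2 at 17.6 ± 2.10 and Mknk1 at 14.4 ± 3.15 TPM, while Mlst8 was at 0.52 ± 0.177 TPM. All 10 poly(A) and cap partners were detected, led by the poly(A)-binding protein gene Pabpc1 at 218 ± 12.8 TPM and Cyfip1 at 38.2 ± 3.53 TPM, with Paip2b the lowest at 1.303 TPM.

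Of 6 termination and recycling genes 5 were detected, with the release factors Etf1 at 39.9 ± 3.73 and Gspt1 at 17.6 ± 0.584 TPM and Gspt2 at 0.157 TPM. Of 9 genes that make hypusine on eIF5A or diphthamide on eEF2, 6 were detected. Dhps and Dohh, which make hypusine, were the highest at 10.02 ± 1.02 and 5.39 ± 0.235 TPM, and Dph7 was the lowest at 0.407 TPM. Of 7 mitochondrial and selenocysteine factors 6 were detected, from Tufm, the mitochondrial counterpart of eEF1A, at 7.68 ± 0.835 TPM to Eefsec, which delivers the selenocysteine tRNA, at 1.31 ± 0.125 TPM. The gene not detected was Tsfm, at 1.32, 1.11 and 0.91 TPM.

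Many mRNAs of the translation machinery are known to begin with a C followed by pyrimidines, the 5′ terminal oligopyrimidine tract that mTORC1 acts on through LARP1. RefSeq start windows were found for 48 of the 64 genes. A C followed by at least 4 pyrimidines stood exactly at the RefSeq start, on the transcript strand, in 2 of 48, Eif2s3x and Eif3f. This is 4.17%, where all 27025 genes with a window had 3.01%. A C followed by 6 pyrimidines lay wholly inside the window of 15 bases on either side in 11 of 48, or 22.9%, against 16.4% of all genes. The 11 include Eef1a1, Eif3f, Eif3l and Eif4e, and also Eef1a2 and Eif2s3y, which were not detected. These are matches of letters at an annotated start and show nothing about regulation.

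The 64 genes are spread over most chromosomes, with 6 on chromosome 15 (Eef1d, Eif3d, Eif3e, Eif3h, Eif3l and Eif4b) and 6 on chromosome 7. Of all 64, 14 overlap a coding gene on the opposite strand. How many of all coding genes do so was not counted. The strand setting of the counting is not given in the sources used here, so reads from the shared stretch cannot be told apart with certainty. That stretch can be short: Eif2a begins at chr3:58525821 and its partner Serp1 ends at chr3:58525892. The partner was more abundant than the translation factor in several pairs, as for Eif2a with Serp1 at 50.1 ± 8.29 TPM, Eif2b4 with Snx17 at 10.7 TPM and Eif1ad with Banf1 at 11.8 TPM.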

How the data were processed

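The authors deposited expected counts, TPM and FPKM per gene and per transcript in the column layout of RSEM, and estimated counts and TPM per transcript in the layout of kallisto, here the second quantification. Per the file headers, each transcript also has its percent within the gene and bounds of a TPM credibility interval, deposited as a signal. Gene intervals are quoted only for Eif2s3y, Eif2b1 and Eif2b4. Per the deposited listings, the tables use mm10 and GENCODE M21. Aligner, tool versions and strand setting: not given in the sources used here. All 55536 annotation genes matched.

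A gene with TPM of 1 or more in each library was called detected. Rounded expected counts with TMM factors were fitted with edgeR 4.0.16 (R 4.3.3, intercept only, at least 10 counts on average), and the Poisson dispersion test was a chi-square with 2 degrees of freedom. The test was checked on simulated Poisson counts only. Those hold no error from dividing shared reads among genes, so the check does not cover that error. Other values used Python 3.11.15, pandas 2.3.3 and Biopython 1.88, and DESeq2 1.42.0 served as an alternative. Levels are means ± SD over 3 libraries. Coding-scaled TPM is TPM divided by the sum over nuclear-encoded coding genes. Role and pathway lists, marker lists and pairs were written out by hand. The name rule, lists and tests were chosen with earlier results of these data known, although the rule itself takes no measured value. By the rule for named genes, every gene of the name rule and of the pathway lists may be named. Of the role lists, Eef1aknmt matched no symbol. Start windows came from RefSeq.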

Additional observations from a re-analysis of the deposited data

How the results depend on the processing

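The number of detected translation factors was 59 and went to 60 at a TPM of 0.5, 40 at a TPM of 5, 60 by FPKM, 49 in the second quantification, and 59 to 60 when 1 replicate was left out. The share of all coding genes detected was not counted under these alternatives. Their median of 14.4 TPM was 5.50 TPM in the second quantification and 15.3 TPM over genes with a mean of at least 1, and 14.3 to 14.5 TPM without 1 replicate. Their share of coding TPM, 1.37%, was 1.32% in the second quantification, 1.23% by expected counts, 0.787% without Eef1a1, and 1.34% to 1.38% without 1 replicate. Genes varying beyond counting error numbered 52 with DESeq2 size factors, 53 with TMM over coding genes, 53 of 62 without a filter, and 34 to 40 without 1 replicate, where 62.4%, 61.9%, 43.4% and 37.9% to 49.5% of all genes were called. With 2 libraries in place of 3 the test has fewer samples. The median coefficient of variation of the translation factors, 0.111, was 0.102 when fitted to coding genes only, 0.103 with DESeq2, 0.117 without a filter and 0.101 to 0.135 without 1 replicate. The number of pairs with the first gene higher, 10 of 11, was 10 with a pseudocount of 1, with FPKM and without any 1 replicate, and 9 in the second quantification, where Eif3j1 over Eif3j2 turned, at -1.09, and the cause was not tested. On coding models it was 9 of 10 pairs, with none turned, because Eif5a2 was not detected and its pair was left out.

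The second quantification gave TPM at a median of 0.382 of the gene-table TPM over 60 translation factors, and 58 lay within 1.5-fold of that median, all but Eif3j1 and Eif3j2. Depth limits Eef1a2, Eef1akmt3 and Eif4ebp3, with few counts. Floors cover counting error only. Floors and intervals each refer to a single library, so neither covers the spread between libraries. No paired analysis was possible because there is 1 group, so no second group shares the replicate numbers.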

Other observations

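Small nucleolar RNA genes lie inside 8 of the 64 translation factor genes, 17 in all, and 5 of these had any counts. Host genes outside the list were not counted. Gm23262, inside Eif4g2, had 105, 231 and 154 expected counts, and Gm22988, inside Eif4a1, had 22.9, 22.8 and 36.9. Their mean effective lengths of 7.29 and 2.45 bases make their TPM unstable, so no level is compared with that of the host gene.

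The Y-linked genes Ddx3y, Uty, Kdm5d and Eif2s3y had 0 counts in every library, while Xist, which is transcribed from the inactive X chromosome, was at 5.78, 1.18 and 10.2 TPM. Xist was lowest in replicate 2.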
